A study of Mus musculus with 6 samples.

Results

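The genes described here encode the proteins of the mitochondrial ribosome, the particle that translates messenger RNA inside mitochondria. They were taken from the deposited table as the protein-coding genes whose symbol starts with Mrpl (large subunit) or Mrps (small subunit) and a number, pseudogene names left out, and whose value reached 1 in 3 or more libraries. Of 78 such genes 77 met that filter, 48 of 49 for the large subunit and 29 of 29 for the small subunit, among 13972 genes that met it in the whole table of 55414 rows. RNA sequencing was done on TM4 cells, an established mouse testis line used as a model of Sertoli cells, in 3 libraries of a control group and 3 libraries of a group labelled VC. The agent is uncertain: the title of the study names vitamin C, while the agent given for the VC samples and the design text is valine, and VC is used here as a bare label. Dose and exposure time were not stated. Separate cultures are not mentioned for the replicates, so p-values measure the spread between these libraries, which may be technical. Fewer cells that express a gene and less of its RNA per cell cannot be told apart in such bulk samples.

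The mitochondrial ribosome makes a small set of proteins, all encoded on mitochondrial DNA and all of them subunits of the respiratory chain and the ATP synthase. Its ribosomal RNAs are mitochondrial transcripts, whereas all of its proteins are encoded in the nucleus, translated in the cytosol and imported. Many have a counterpart in bacterial ribosomes, and others are found only in mitochondria. In the testis, Sertoli cells support germ cells largely with lactate and burn fatty acids in their own mitochondria.

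Library depth, recovered from the values, was 20408426 to 22316857 reads. The line carried part of the Sertoli marker set. Of 12 such markers 7 passed the filter, Gata4 ranging from 18.6 to 22.3 and Sox9 from 2.83 to 3.96, while Wt1, Fshr and Dmrt1 were listed at 0 in all 6 libraries. Of 6 germ cell markers 0 passed the filter, against 1 of 6 for Leydig cells, 1 of 4 for macrophages, 1 of 4 for endothelial cells and 3 of 5 for peritubular myoid cells. The summed myoid markers ran from 608.6 to 667.9 in control and from 391.6 to 401.6 in VC. Most of that sum was Acta2, with means of 612.9 in control and 381.7 in VC. Cnn1 and Tagln were also lower in mean, Des was higher (0.604 and 0.725), and Myh11 was near 0. The part of this difference in the results below was not tested.

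Promoter windows of RefSeq (build GRCm38.p6, 250 bases before to 50 bases after a transcription start, the first window listed per gene) were found for 68 of the 77 members. Because nuclear genes for mitochondria are known as targets of the factors NRF1 and GABP, the latter a member of the ETS family, and of YY1, 3 motifs were searched by their letters on both strands. The NRF1 motif, whose letters are the capitals in 4 of the sequences printed here, stood in 13 of the 68 windows (19.1%), against 11.2% of 9000 windows of tested genes and 4.78% of all 27025 windows. The ETS letters CCGGAAG stood in 24 windows (35.3%), against 19.9% of tested and 9.12% of all genes. The letters AAGATGGC, part of the YY1 motif, stood in 12 windows (17.6%), against 5.17% of tested and 2.88% of all genes. A GC box, GGGCGG, stood in 34 of the 68 windows, against 65.9% of tested and 35.9% of all genes. The matches are descriptions of letters, not of binding. Matches of different motifs shared bases in 2 of the 68 windows, each time an ETS match and a GC box. For the genes that the results below turn on, the 100 bases before the start follow, 5′ to 3′ on the strand of the gene, with matches to the first 3 motifs in capitals.
Mrpl12 (chr11:120484537-120484636, plus strand): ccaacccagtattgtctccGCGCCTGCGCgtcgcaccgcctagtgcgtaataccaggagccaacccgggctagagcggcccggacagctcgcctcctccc
Mrpl30 (chr1:37890377-37890476, plus strand): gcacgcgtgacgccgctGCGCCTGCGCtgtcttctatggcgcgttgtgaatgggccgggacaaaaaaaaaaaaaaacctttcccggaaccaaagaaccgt
Mrpl34 (chr8:71464826-71464925, plus strand): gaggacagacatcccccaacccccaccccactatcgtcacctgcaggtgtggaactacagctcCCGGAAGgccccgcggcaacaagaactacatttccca
Mrpl45 (chr11:97315616-97315715, plus strand): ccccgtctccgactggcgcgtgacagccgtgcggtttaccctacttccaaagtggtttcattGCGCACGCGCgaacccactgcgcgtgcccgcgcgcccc
Mrpl24 (chr3:87919444-87919543, plus strand): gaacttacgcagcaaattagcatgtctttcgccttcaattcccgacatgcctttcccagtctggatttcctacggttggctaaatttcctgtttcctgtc
Mrps21 (chr3:95871515-95871614, minus strand): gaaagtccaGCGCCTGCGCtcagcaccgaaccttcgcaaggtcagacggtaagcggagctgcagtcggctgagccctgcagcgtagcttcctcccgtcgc
Mrps18a (chr17:46110904-46111003, plus strand): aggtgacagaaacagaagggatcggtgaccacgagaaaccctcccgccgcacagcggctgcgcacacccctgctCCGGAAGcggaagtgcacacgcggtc
Mrps10 (chr17:47369097-47369196, plus strand): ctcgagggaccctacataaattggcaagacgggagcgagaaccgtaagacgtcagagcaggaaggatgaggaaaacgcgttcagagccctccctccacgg
Mrps23 (chr11:88204288-88204387, plus strand): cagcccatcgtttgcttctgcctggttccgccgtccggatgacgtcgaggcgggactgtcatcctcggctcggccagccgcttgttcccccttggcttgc
Mrps33 (chr6:39810937-39811036, minus strand): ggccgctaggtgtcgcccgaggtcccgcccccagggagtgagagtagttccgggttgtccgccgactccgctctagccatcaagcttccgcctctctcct

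In Mrpl12, Mrpl30, Mrpl45 and Mrps21 the capitals are the NRF1 letters, and in Mrpl34 and Mrps18a the ETS letters. The NRF1 match began 81 bases before the start in Mrpl12, 83 in Mrpl30 and 91 in Mrps21. Mrpl45 held 2 such matches, at 120 and 38 bases, of which the first lies outside the bases printed. The other 4 sequences held none of the 3 motifs in the bases printed. The windows of Mrps23 and Mrps33 do hold an ETS match that does not lie within those bases, while those of Mrpl24 and Mrps10 hold none of the 3. In 22 of the 68 members (32.4%) the window overlapped that of a gene on the opposite strand, against 17.7% of tested genes. In 1 such pair both genes encode mitochondrial ribosomal proteins, Mrpl46 of the large and Mrps11 of the small subunit. Their starts point away from each other, and 41 bases lie between them, printed here because it is the stretch between the starts of a gene of each subunit. It held none of the first 3 motifs.
Mrpl46 to Mrps11 (chr7:78783090-78783130, plus strand): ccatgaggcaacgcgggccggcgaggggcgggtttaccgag

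VC was set against control to see what the agent did to mRNA levels in these cells, here those of the mitochondrial ribosome. No member was called higher or lower, and the differences were small for both subunits. Of 48 large subunit genes 0 passed limma's adjusted p of 0.05 in either direction, and of 29 small subunit genes 0 passed. Over all tested genes 0.687% passed, 0.429% higher and 0.258% lower. At an unadjusted p under 0.05 there were 6 of 77 members, or 7.79%, against 17.2% of tested genes. These were 3 higher and 3 lower, where 9.05% of tested genes were higher and 8.2% lower. With voom weights on the recovered reads, limma also called 0 members, with 7 at an unadjusted p under 0.05. Over the 13772 tested genes with a length, that fit called 548, and 2752 had an unadjusted p under 0.05.

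The intervals limit how large a difference could have been missed. The log2 fold changes of VC over control, taken after adding 1 to each value, ran from -0.17 to 0.20, and all 77 of the 95% intervals lay inside a 1.5-fold change in either direction. That was so for 82.5% of tested genes, which include many of lower level. For 69 of the 77 members the interval lay inside a 1.2-fold change, against 43.3% of tested genes. The widest excursions were those of Mrpl43, whose interval reached 0.43, and Mrpl55, whose interval reached -0.34; Mrpl55 had the fewest reads of all members, 162 in its lowest library. A p that misses the threshold does not show that the levels were equal.

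**Figure D1:**
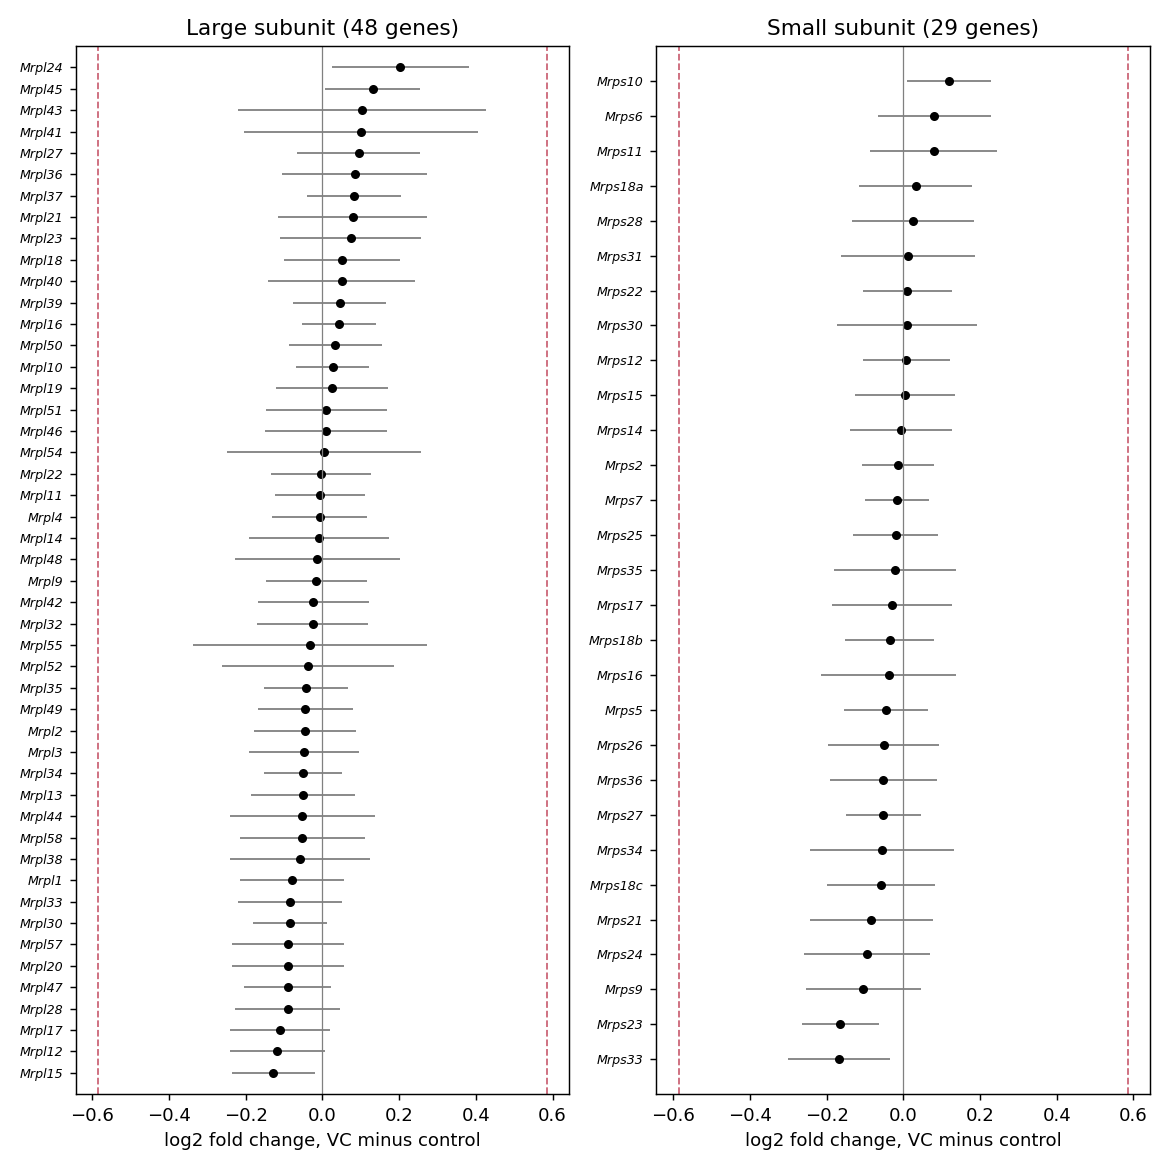
Log2 fold change of each mitochondrial ribosomal protein gene, VC over control after adding 1 to each value (points), with limma's 95% interval (lines, 3 libraries per group), large subunit left and small subunit right; dashed lines mark a 1.5-fold change. All 77 intervals lie between the dashed lines, and the points run from -0.17 to 0.20.

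The median log2 fold change was -0.015 over the 48 large subunit genes and -0.021 over the 29 small subunit genes, beside 0.012 over all tested genes. In the large subunit 19 members were above 0 and 29 below, and in the small subunit 10 above and 19 below, where 46.3% of tested genes were below 0. The quartiles were -0.052 and 0.043 in the large subunit and -0.052 and 0.0098 in the small subunit. The standard deviation among members was 0.069, against 0.227 among all tested genes. The 3 VC values lay wholly on one side of the 3 control values in 10 of 77 members (13.0%), 2 above and 8 below. Over all tested genes 25.6% were separate in this way, 13.9% above and 11.6% below.

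The sign of these medians changed without 1 control library and with another scaling. Control replicate 3 was the highest of the 6 libraries for 34 of 48 large and 18 of 29 small subunit genes, against 23.3% of tested genes. Taken as deviations from each gene's mean over 6 libraries, the large subunit medians were -0.045, -0.025 and 0.106 in control replicates 1, 2 and 3, and -0.022, -0.0058 and -0.018 in VC replicates 1, 2 and 3. The small subunit gave -0.036, -0.021 and 0.096 in control, and -0.016, 0.0057 and -0.036 in VC. In that library 43 of 48 large and 27 of 29 small subunit genes were above their own mean. Without control replicate 3 the large subunit median was 0.033, with 32 members above 0 and 16 below, and the small subunit median was 0.0041, with 18 above and 11 below. The counts of separate groups turned as well: without that library 14 members were wholly above control (11 large, 3 small) and 8 wholly below (5 large, 3 small), where 19.9% of tested genes were above and 17.3% below. Fewer control libraries make separation easier. With it left out, limma again called 0 of 77, where it called 82 of all 13972 tested genes. The column total of control replicate 3 was also the highest, 1058206 beside 966031 to 1011352 in the other libraries. With totals made equal, the large and small subunit medians were 0.052 and 0.045, both below the 0.078 of all tested genes.

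**Figure D2:**
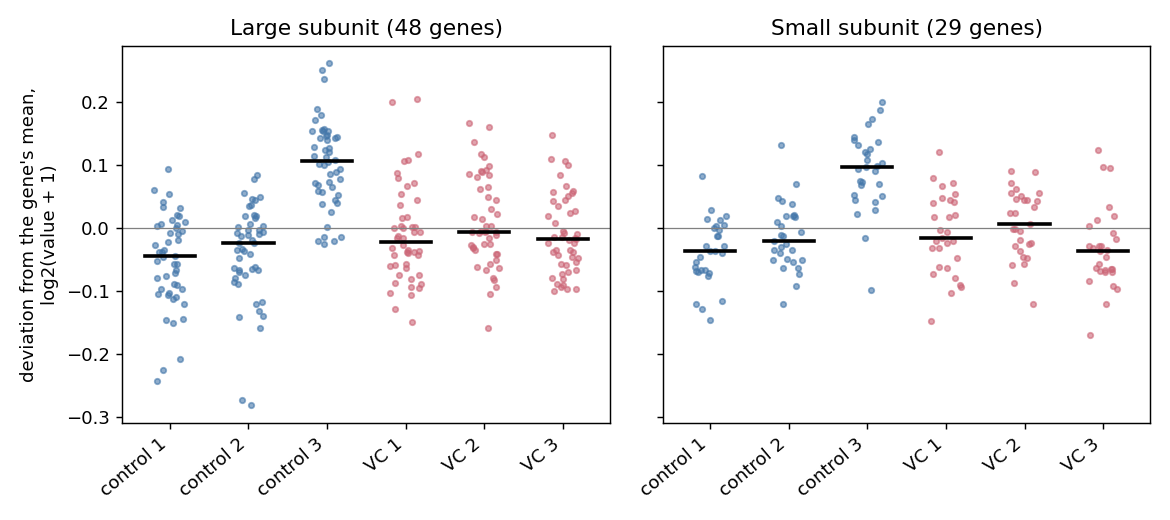
Deviation of each gene from its own mean over the 6 libraries, in log2(value + 1) units, by library, for the 48 large subunit genes (left) and the 29 small subunit genes (right); points are genes and black bars are medians. Control replicate 3 stands above the other 5 libraries in both subunits, with medians of 0.106 and 0.096.

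The same library was also high for cytosolic ribosomal proteins, which build the ribosomes outside mitochondria. Control replicate 3 was the highest library for 71 of their 77 tested genes, with a median deviation of 0.175. In contrast to the mitochondrial set, 72 of these 77 cytosolic genes were below 0 in VC, with a median log2 fold change of -0.11. Limma called 0 of them, beside 0.687% of tested genes. Without control replicate 3 their median was -0.054, with 65 still below 0. Whether cytosolic and mitochondrial ribosomal protein genes differed in their response was not tested. Nor was the part of the column total in the values of control replicate 3 tested. With totals made equal the median of all tested genes was 0.078 in place of 0.012. That scaling multiplies each library by 1 factor, and column totals were lower in VC (966031 to 983802) than in control (1007535 to 1058206). The cytosolic median would therefore also be higher at equal totals, by an amount that was not computed.

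Summed over members, the large subunit values were 2648, 2685 and 2966 in control replicates 1, 2 and 3, and 2728, 2761 and 2734 in VC. The small subunit sums were 1439, 1452 and 1580 in control, and 1451, 1478 and 1417 in VC. For the large subunit all 3 VC sums lay between the control sums, and for the small subunit the groups overlapped. The ratio of the large to the small sum was 1.84, 1.85 and 1.88 in control, and 1.88, 1.87 and 1.93 in VC, again with overlap.

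The 6 members with an unadjusted p under 0.05 were Mrps23, Mrps33, Mrpl15, Mrpl24, Mrps10 and Mrpl45, and each is given with its values. Mrps23, a small subunit protein found only in mitochondrial ribosomes, was at 96.8, 92.6 and 101.1 in control and 85.1, 88.4 and 85.4 in VC. All 3 VC libraries were below the lowest control. The means were 96.9 ± 4.25 and 86.3 ± 1.84 (SD, n = 3 per group) in control and VC. On the log2 scale VC differed by -0.16 (SE 0.042), and its adjusted p from limma, 0.13, was the smallest among the members.

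Mrps33, also without a bacterial counterpart, was at 78.2, 81.3 and 86.9 in control and 76.3, 74.3 and 68.7 in VC. The groups did not overlap, but the gap between them was narrow. The log2 fold change was -0.17 (SE 0.056, limma adjusted p = 0.209). Mrps10, the counterpart of a bacterial protein of the small subunit head, was at 19.2, 18.9 and 18.2 in control and 20.7, 20.9 and 19.9 in VC. Here the VC libraries were the higher ones. The log2 difference was 0.12 ± 0.046 (SE), at an adjusted p of 0.257 in limma.

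In the large subunit, Mrpl15 was at 17.3, 17.2 and 17.7 in control and 16.1, 15.9 and 15.5 in VC, with no overlap. Its log2 fold change was -0.13 (SE 0.045, limma adjusted p = 0.228). Mrpl24, the member with the largest positive difference, was at 55.4, 59.7 and 66.6 in control and 74.7, 67.8 and 66.9 in VC. Its lowest VC library barely exceeded its highest control library, and the log2 difference was 0.20 ± 0.075 (SE), at an adjusted p of 0.243 in limma. Exons of Rrnad1 on the opposite strand overlap 26.3% of its exon length, and whether the counting used strand is not given in the sources used here, so its reads and those of Rrnad1 cannot be told apart there. Mrpl45, which sits near the exit of the peptide tunnel, was at 65.0, 63.1 and 70.4 in control and 69.3, 73.6 and 74.5 in VC, with control replicate 3 inside the VC range. Its log2 fold change was 0.13 (SE 0.053, limma adjusted p = 0.272).

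**Figure D3:**
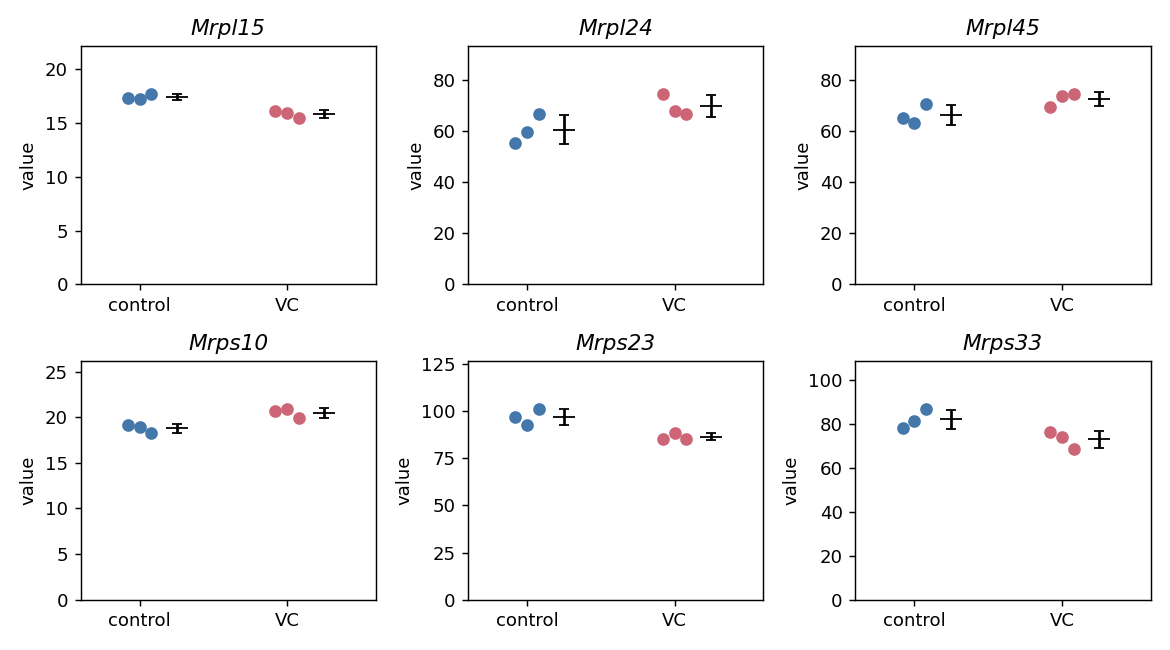
Normalised value of the 6 members with an unadjusted p under 0.05 in each control and VC library (points, replicates 1 to 3 from left to right), with the mean and SD of each group (black, n = 3); axes start at 0. The groups are separate in 5 genes and overlap in Mrpl45, and each difference is small beside the level itself.

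Mrpl12 forms the flexible stalk of the large subunit and is also known to bind the mitochondrial RNA polymerase. It was at 187.5, 184.7 and 209.5 in control and 176.4, 177.4 and 181.4 in VC, with all VC libraries below control. The log2 fold change was -0.12 (SE 0.052, limma adjusted p = 0.309), and it was -0.061 without control replicate 3. Mrpl30, with NRF1 letters before its start like Mrpl12, was at 45.2, 43.0 and 45.6 in control and 41.0, 43.0 and 41.8 in VC (log2 fold change -0.085, limma adjusted p = 0.336). Over the members, the 13 with NRF1 letters had a median log2 fold change of -0.052 and the other 55 of -0.014. The 24 with ETS letters had -0.043 and the other 44 had -0.014. The 12 with YY1 letters had -0.020 and the other 56 had -0.018, and the 34 with a GC box had -0.025 against -0.015 in the 34 without. Mrpl45, with 2 NRF1 matches, was at 0.13, on the other side of 0 from Mrpl12 and Mrpl30. These contrasts were not tested.

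Mrps9 and Mrps24 complete the 5 small subunit genes of smallest p. Mrps9 was at 17.1, 19.7 and 19.2 in control and 17.1, 17.6 and 17.1 in VC, and Mrps24 at 62.4, 63.9 and 74.2 in control and 61.6, 64.7 and 60.7 in VC. In both the groups overlapped. The log2 fold change of Mrps24, the counterpart of bacterial S3, was -0.095 (limma adjusted p = 0.523), and it was -0.018 without control replicate 3.

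The 3 paralogues related to bacterial S18 occupy different places in the ribosome, and Mrps18a belongs to the large subunit despite its symbol. Mrps18b was at 53.3, 56.5 and 56.3 in control and 51.7, 57.1 and 53.3 in VC. Mrps18c was at 44.3, 43.6 and 48.2 in control and 46.5, 41.7 and 42.4 in VC, and Mrps18a at 26.1, 25.6 and 27.8 in control and 25.1, 27.6 and 28.7 in VC. The groups overlapped in each, and the order of Mrps18b over Mrps18c over Mrps18a held in all 6 libraries per total exon length. Per principal transcript the order was another, with mean recovered reads per kb of 895.2 for Mrps18a, 846.2 for Mrps18b and 600.1 for Mrps18c. Their log2 fold changes were -0.036, -0.058 and 0.032, with limma adjusted p of 0.745, 0.655 and 0.827. With 1 library left out they ran from -0.075 to -0.0051 for Mrps18b, from -0.106 to -0.014 for Mrps18c and from -0.0079 to 0.086 for Mrps18a. Mrps18b and Mrps18c share 30.5% and 23.2% of their exon length with another gene.

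2 further symbols do not match a place in the small subunit. Mrps30 is a large subunit protein in the structure and was at 13.6, 14.9 and 16.5 in control and 14.2, 15.6 and 15.4 in VC. Mrps36, also known as a subunit of the 2-oxoglutarate dehydrogenase complex, was at 49.2, 52.5 and 57.1 in control and 50.7, 49.8 and 52.4 in VC. Both overlapped between groups, at log2 fold changes of 0.01 and -0.052. By a list of bacterial counterparts that leaves out Mrps18a and Mrps18b, the members with one (46 tested) had a median of -0.021 and the other 31 had -0.02.

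The levels of the members spanned a wide range, with nearly the same order in both groups. Mean values over 6 libraries ran from 5.78 for Mrpl48 to 191.5 for Mrps21, a 33.1-fold range, with a median of 44.5. Mrps21, the counterpart of a small bacterial protein, was at 189.4, 186.5 and 215.5 in control and 184.9, 197.0 and 175.6 in VC. Mrpl34, the highest of the large subunit, was at 185.5, 190.4 and 205.0 in control and 185.9, 189.2 and 185.2 in VC, so the 2 leading genes did not differ beyond their spread. Mrpl48 was at 5.51, 5.55 and 6.38 in control and 6.29, 5.49 and 5.47 in VC, and Mrps35, the lowest of the small subunit, was at 9.90, 10.4 and 11.3 in control and 10.8, 10.2 and 10.2 in VC. Across the 77 members Spearman's rank correlation between control and VC means was 0.996, a description of genes that share their libraries.

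**Figure D4:**
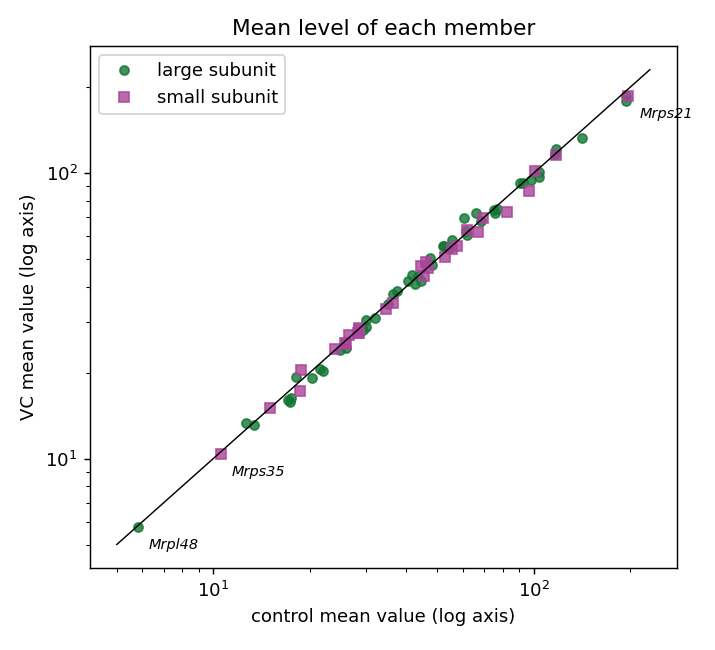
Mean value of each member in control (x axis) and in VC (y axis), both on log axes, for the large subunit (circles) and the small subunit (squares), with the line of equal levels. The points follow the line from Mrpl48 at 5.82 in control and 5.75 in VC to Mrps21 at 197.1 and 185.8.

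The order of levels depends on the length by which reads are divided. The values are per total exon length of all annotated transcripts of a gene, and Spearman's rank correlation between that length and the mean value was -0.73 across the 77 members, which share their libraries. Mrps10 has 8079 exon bases in all but 1018 in its principal transcript, and Mrps21 has 739 and 488. Divided by the principal transcript instead, recovered reads put Mrps10 at rank 11 in place of 67 and Mrpl42 at rank 1, while Mrps21 was at rank 2 and Mrpl48 stayed at the lowest rank, 77. The fold change of a gene is computed at 1 length in all libraries, but a trend of the values with length within libraries can still move it. With that trend removed, the difference of Mrps10 was 0.070 in place of 0.12, that of Mrpl15 was -0.18 in place of -0.13, and that of Mrpl34 was 0.000139 in place of -0.051.

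**Figure D5:**
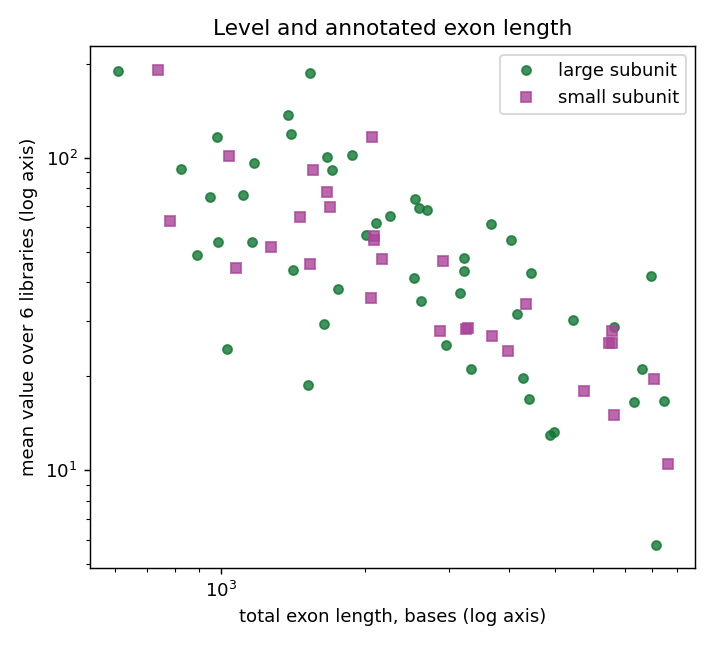
Mean value of each member over the 6 libraries (y axis, log) against the total length of its annotated exons in bases (x axis, log), large subunit as circles and small subunit as squares. Longer annotated exon length goes with a lower value (Spearman's rank correlation -0.73 over 77 genes).

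1 member of the family did not enter the comparison. Mrpl53 was listed at 0 in all 6 libraries. Of its 790 exon bases 695 are shared with Gm42688 on the same strand, which was itself at 0.072 to 0.571, so what the authors' counting did with these reads is not known and no level is read from the 0. Exons of 32 of the 77 members overlap those of another gene, by over 20% of their length in 8. The pseudogene Mrpl48-ps was at 11.9 to 16.9, above Mrpl48 itself, and the level of Mrpl48 is uncertain where reads fit both copies.

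The reads behind each value set its precision. Mean recovered reads per library ran from 201.3 for Mrpl55 to 2648, with a median of 913.3, where counting alone gives a coefficient of variation of 3.31%. The median coefficient of variation between replicates was 6.20% in control and 4.77% in VC. It was at or below each gene's counting error in 10 members in control and 26 in VC.

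5 mitochondrial ribosomal proteins carry other names. Dap3, a GTP-binding protein of the small subunit, was at 39.7 ± 1.80 in control and 37.5 ± 2.21 in VC (SD, n = 3 per group). Ptcd3, a pentatricopeptide repeat protein, was at 84.4 ± 1.96 and 81.8 ± 1.18, and Chchd1 at 138.0 ± 10.3 and 137.8 ± 3.84. Aurkaip1 was at 67.2 ± 7.80 and 67.4 ± 4.01, and Gadd45gip1, of the large subunit, at 30.2 ± 1.66 and 30.9 ± 2.94. Limma called 0 of the 5, at adjusted p from 0.51 to 0.997, with 0 at an unadjusted p under 0.05. Over all tested genes these shares were 0.687% and 17.2%.

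Assembly factors build the particle. Of 27 such genes 0 passed limma's adjusted threshold, beside 0.687% of tested genes. At that share, 0 in a list this short says little about the list. Their median log2 fold change was 0.028. At an unadjusted p under 0.05 there were 5 (18.5%), 4 of them higher, near the 17.2% of tested genes. Rpusd4, a pseudouridine synthase of the large ribosomal RNA, was at 20.7, 19.6 and 21.0 in control and 23.5, 25.2 and 23.9 in VC (log2 fold change 0.23, SE 0.050, limma adjusted p = 0.0929). Mtg1, a GTPase of large subunit assembly, was at 6.71, 5.93 and 6.59 in control and 8.09, 7.64 and 8.77 in VC (log2 fold change 0.31, SE 0.080, limma adjusted p = 0.131). In both genes every VC library was above every control library. For 8 of the 27 the VC libraries were all above control and for 1 all below, beside 13.9% and 11.6% of tested genes. Without control replicate 3 these were 11 and 1, beside 19.9% and 17.3%, and the median was 0.064.

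Of 19 tested translation factors 0 passed, beside 0.687% of tested genes, with a median of 0.004. An unadjusted p under 0.05 was found for 1 gene (5.26%), beside 17.2% of tested genes. That gene was Gatc, a subunit of the amidotransferase that makes glutaminyl-tRNA, at 39.0 ± 1.79 in control and 35.6 ± 0.527 in VC (n = 3 per group, limma adjusted p = 0.23). Tufm, the elongation factor that brings tRNA to the ribosome, was at 160.2 ± 5.09 and 153.7 ± 2.95 (limma adjusted p = 0.454; picked with its values known). The translation factor gene Pdf stayed below the filter, at 0.591 to 0.948.

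Among 21 genes of mitochondrial transcription and RNA processing 0 passed, beside 0.687% of tested genes, with a median of -0.001. At an unadjusted p under 0.05 there were 2 (9.52%), beside 17.2% of tested genes. Grsf1, an RNA-binding protein of mitochondrial RNA granules where ribosomes are assembled, was just short of the threshold. It was at 88.2, 84.9 and 89.3 in control and 73.5, 73.5 and 75.9 in VC, wide apart beside the spread within groups. The log2 difference was -0.23 ± 0.036 (SE), at an adjusted p of 0.051 in limma. Rexo2, an oligoribonuclease, was at 123.1 ± 6.03 and 113.2 ± 4.25 (n = 3 per group, limma adjusted p = 0.268).

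Of 10 transcription factors and coactivators of nuclear genes for mitochondria 0 passed, beside 0.687% of tested genes. At an unadjusted p under 0.05 there were 3 (30.0%), beside 17.2% of tested genes. Ppargc1a, a coactivator of mitochondrial biogenesis, was low, at 2.62, 2.44 and 2.45 in control and 3.83, 3.35 and 3.49 in VC (log2 fold change 0.38, SE 0.10, limma adjusted p = 0.14). Yy1 was at 44.3 ± 0.989 and 41.6 ± 0.601 (n = 3 per group, limma adjusted p = 0.276). Nrf1 was at 12.5 ± 0.259 and 12.4 ± 0.287 and Gabpa at 40.4 ± 1.79 and 41.4 ± 1.98, both overlapping between groups. The third was Gabpb2, a subunit of GABP, at 22.6, 20.9 and 17.2 in control and 23.5, 23.3 and 24.5 in VC, with every VC library above control (log2 difference 0.23, limma adjusted p = 0.283). Another GABP subunit, Gabpb1, went the other way, at 14.3 ± 1.22 and 13.1 ± 0.559, with overlap (log2 difference -0.12, limma adjusted p = 0.44). Nrf1, Gabpa, Gabpb1 and Gabpb2 lay outside the naming rule and were picked with their values known.

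The RNAs that the mitochondrial ribosome contains and reads are encoded on mitochondrial DNA. The values of the ribosomal RNAs were near equal in mean between groups. mt-Rnr1, of the small subunit, was at 817.1, 782.2 and 882.1 in control and 866.9, 825.0 and 812.3 in VC, and mt-Rnr2, of the large subunit, at 906.9, 950.9 and 909.9 in control and 936.2, 886.0 and 908.8 in VC. Both overlapped and were likewise picked with their values known. Their values were far below those of a mitochondrial messenger RNA such as mt-Co1, with means of 16260 in control and 14967 in VC. How much ribosomal RNA the library preparation kept was not tested, so these values are not read as ribosomal RNA levels in the cell. Limma called 0 of the 15 mitochondrially encoded genes tested, beside 0.687% of tested genes, and their median log2 fold change was -0.116. At an unadjusted p under 0.05 there were 5 lower (33.3%) and 0 higher, beside 8.2% and 9.05% of tested genes. With totals made equal the median of all tested genes was 0.078 in place of 0.012. That scaling multiplies each library by 1 factor, and column totals were lower in VC (966031 to 983802) than in control (1007535 to 1058206). The median of the mitochondrially encoded genes would therefore also be higher at equal totals. By how much was not computed. mt-Nd2, a subunit of complex I, was at 4994, 4863 and 4942 in control and 4519, 4258 and 4221 in VC (log2 fold change -0.19, SE 0.045, limma adjusted p = 0.117). mt-Nd4, of the same complex, was at 5137, 4977 and 5142 in control and 4583, 4455 and 3928 in VC (log2 fold change -0.24, SE 0.065, limma adjusted p = 0.146). The VC libraries were all below control in 9 of the 15, beside 11.6% of tested genes. Without control replicate 3 that was so in 10 of the 15, beside 17.3%, and their median was again -0.116.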

How the data were processed

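RNA was extracted with Trizol from TM4 cells, 3 control and 3 VC libraries, and TruSeq libraries were sequenced, per the labels' protocols. The authors aligned reads with HISAT2 to GRCm39, per the submitters' processing notes; of the counting tool and the annotation the name is not given in the sources used here. What the authors deposited is a signal per gene that resembles TPM with a further factor per library, and the table's name points to TMM scaling. Columns were matched to samples through the descriptions.

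Symbols and exon lengths came from GENCODE M21 on GRCm38, an earlier build, and 52133 of 55414 identifiers matched. Multiplied by exon length and divided by a constant of each library, 98.7% to 98.9% of values came within 0.1 of a whole read, checked up to 1000 reads where rounding errs by under 0.05 read. These recovered reads served for depth and the voom alternative.

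Genes that reached 1 in 3 libraries were tested on log2(value + 1) with limma 3.58.1 (R 4.3.3), empirical Bayes with a trend, two-sided, Benjamini-Hochberg over all 13972 genes, threshold 0.05; intervals are 95%. Tables and figures used Python 3.11.15, pandas 2.3.3, numpy 2.4.6 and matplotlib 3.10.9. The procedure was also run on simulated data, drawn with the same spread beyond counting error for all genes. Its outcome is not given here, and no result above rests on it. The simulated data were drawn without a shift of a whole library, so they do not bear on the height of control replicate 3. Intervals and read-based precision cover counting error or library spread only.

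Members and lists were chosen with earlier results of these data known. Named were members past the threshold, the 5 of smallest p per subunit, the highest and lowest level per subunit, the Mrps18 paralogues, Mrps30, Mrps36, Mrpl12, members below the filter, and up to 2 genes per other list. Members that illustrate an interval, a rank, a shared promoter or a shared exon were named with their values known. Alternatives changed pseudocount, filter, scaling, variance model, block, length trend and libraries.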

Additional observations from a re-analysis of the deposited data

How the results depend on the processing

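No mitochondrial ribosomal protein gene was called by limma under any of the 17 alternatives, whose smallest adjusted p for a member was 0.0855 (equal totals). The named members are among these genes and so gave 0 calls too. From 3 to 11 members had an unadjusted p under 0.05, where 1637 to 2917 of all genes did. Under alternatives that called 0, 1 or 6 genes in the whole table, 0 members was nearly fixed in advance and does not speak to stability. The number of genes called in the whole table, 96, was 30 without a filter, 235 at a mean value of 10 or more, 217 with equal totals, 6 without a trend, 548 by voom on recovered reads, 264 with the length trend removed, and 0 to 82 with 1 library left out (82 without control replicate 3, and 0 or 1 without any of the other 5). The large and small subunit medians became 0.052 and 0.045 with equal totals (0.078 over all genes), -8.9e-05 and -0.016 with the length trend removed, -0.0098 and -0.041 after quantile normalization, and ran from -0.048 to 0.033 and from -0.056 to 0.0041 with 1 library left out.

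Differences near 0 changed sign. With equal totals Mrpl34 was 0.021, Mrpl48 0.048, Mrps18b 0.0355, Mrps18c 0.0125, Mrps35 0.045 and Mrps36 0.0196. Mrpl34 was 5.55e-05 after quantile normalization and 0.000139 with the length trend removed, and Mrps30 was -0.025 and -0.028. With 1 library left out Mrpl48 ran from -0.0705 to 0.045, Mrps18a from -0.0079 to 0.086, Mrps30 from -0.052 to 0.075, Mrps35 from -0.062 to 0.028 and Mrps36 from -0.10 to 0.0035. Making totals equal multiplies each library by 1 factor, and it raised the median over all genes as well, from 0.012 to 0.078. The cause of the other sign changes was not tested.

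Replicate numbers are shared between groups, but deviations of same-numbered libraries correlated at only -0.019, -0.011 and 0.0051 over 13972 genes. No shared deviation over all genes was seen, which cannot exclude that same-numbered libraries were handled together. With the replicate block limma called 0 genes in all, and so 0 members. At an unadjusted p under 0.05 there were 3 members, where 2039 of all genes were. That fit also has fewer residual degrees of freedom.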
